A study of Mus musculus with 6 samples.

Results

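The 37 genes described here encode the machinery of autophagy and the contents and membrane of the lysosome. They were listed by gene name and role, with no threshold on measured values but with earlier results of these data known, as 20 genes of autophagosome formation and cargo capture, 16 genes of lysosomal proteins, and Tfeb, a transcription factor that drives lysosomal genes. All 37 were found through RefSeq accessions among the 20659 gene symbols on the array. The knock-in mice carried a G to C change in codon 151 of Crybb2, made with CRISPR/Cas9, which turns tryptophan into cysteine in the lens protein βB2-crystallin. Whether they carried it on 1 or both copies is not stated in the labels. Total RNA came from lenses at 3 months of age, with 3 arrays of knock-in lenses, numbered 1, 2 and 4 in the labels, and 3 of wild type lenses, numbered 1 to 3. Each array measured 39429 probes in a single colour.

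In autophagy a membrane closes around cytoplasm or an organelle and delivers it to the lysosome, where acid proteases and other hydrolases break it down. The initiating kinase and lipid kinase complexes start the membrane, 2 ubiquitin-like conjugation systems attach proteins of the Atg8 family (LC3 and GABARAP) to it, and receptors link cargo to those proteins. Lens fibre cells lose their nuclei, mitochondria and endoplasmic reticulum as they mature, and basal autophagy also clears protein from lens cells.

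Values are log2 signals relative to the 75th percentile of the same array, so 0 is the level of that percentile and a difference of 1 is 2-fold. They show how 1 probe differs between arrays, and levels of different probes are not compared. Differences are knock-in minus wild type from limma, with p-values adjusted over the 12782 genes tested (Benjamini-Hochberg), and a gene is said to have risen or fallen where the adjusted p was under 0.05. By that rule 25.9% of all genes tested were called, 13.3% rising and 12.6% falling. The 75th percentile was 167 to 201 on the knock-in arrays and 120 to 698 on the wild type arrays, wild type array 3 having the brightest signal, and 45.5% to 58.4% of spots were well above background.

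The 3 knock-in arrays shared 1 scan time, wild type arrays 1 and 2 shared another on the same day, and wild type array 3 was scanned on another day. Arrays of 1 scan time are taken here as 1 slide. Genotype and slide cannot be told apart, since each slide carried a single genotype. Among all 9 lens fibre markers and 5 of 6 lens epithelial markers, every array was well above background. Knock-in array 4 also carried photoreceptor transcripts: Rcvrn was at -3.09, -2.45 and 1.87 on knock-in arrays 1, 2 and 4, and at -4.06, -4.95 and -4.37 on the wild type arrays. Knock-in array 1 had more signal from macrophage genes than the other knock-in arrays, as given with the cathepsins. A change in a transcript of whole lenses can reflect fewer or more cells of a type or less or more RNA per cell, and these cannot be told apart.

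Most lysosomal genes on the list rose in the knock-in lenses, while autophagy genes rose and fell at about the shares of all genes tested. Of the 16 lysosomal genes 10 rose and none fell, a share of 62.5%, with a median difference of 0.91 over the 16 and -0.04 over all genes tested. Of the 20 autophagy genes 3 rose (Map1lc3a, Sqstm1 and Gabarapl2) and 3 fell (Atg3, Gabarapl1 and Wipi1), each a share of 15%, near the 13.3% and 12.6% of all genes tested, with a median of -0.12. Tfeb did not pass the test. All 37 together gave 13 rises and 3 falls. With arrays centred on their median, 8 lysosomal genes rose and none fell, and 2 autophagy genes rose and 5 fell. Over the 37 genes that was 10 rises and 5 falls, against 8.94% rising and 12.9% falling (21.9% in all) of all genes tested. Rises made up 51.3% of all calls at the 75th percentile and 40.9% with median centring. All 37 passed the filter on dim probes, of which 32 were well above background on all 6 arrays. The other 5 passed through 1 group: Gpnmb through the knock-in lenses, and Atg9a, Atg4b, Npc1 and Tfeb through the wild type lenses. Among lysosomal genes well above background everywhere, 9 of 14 rose, against 14.8% rising and 11.5% falling of all genes tested under that filter.

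**Figure D1:**
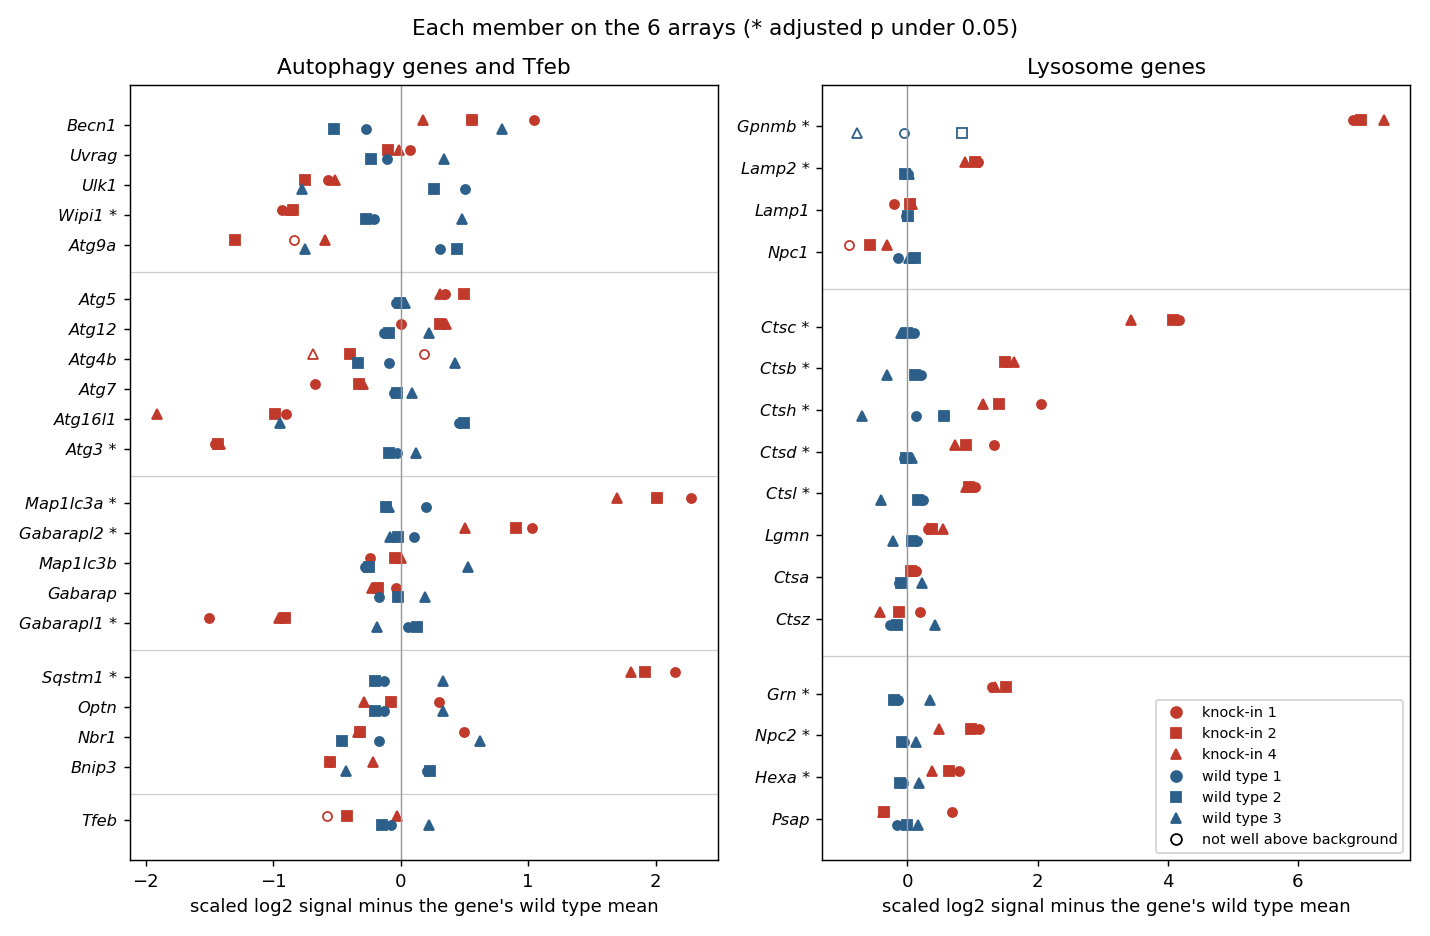
The scaled log2 signal of each member on each array, minus the gene's wild type mean (horizontal axis, log2), for autophagy genes with Tfeb (left) and lysosomal genes (right). Knock-in arrays are red and above, wild type arrays blue and below, open symbols mark arrays not well above background, and an asterisk marks an adjusted p under 0.05; Ctsc lies 3.90 above wild type on average and Atg3 1.44 below, and the open wild type symbols of Gpnmb are not measured levels.

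Promoter sequences were read from RefSeq (build GRCm38.p6) to see whether the genes that moved share the DNA element through which TFEB and its relatives act, an E-box with the core CACGTG. They are shown here because the core occurs in genes of these lists that rose, that fell and that did not pass the test. Each window runs from 250 bases before to 50 bases after a gene start, 5′ to 3′ on the gene's strand, with the core in capitals. Ctsd (chr7:142387778-142388077, minus strand) and Ctsa (chr2:164833523-164833822, plus strand, the second of its 2 windows) encode lysosomal proteases. Lamp1 (chr8:13158911-13159210, plus strand) encodes a lysosomal membrane protein, Atg3 (chr16:45158579-45158878, plus strand) an autophagy enzyme, and Gpnmb (chr6:49036268-49036567, plus strand) the gene with the largest rise among the 37.
Ctsd: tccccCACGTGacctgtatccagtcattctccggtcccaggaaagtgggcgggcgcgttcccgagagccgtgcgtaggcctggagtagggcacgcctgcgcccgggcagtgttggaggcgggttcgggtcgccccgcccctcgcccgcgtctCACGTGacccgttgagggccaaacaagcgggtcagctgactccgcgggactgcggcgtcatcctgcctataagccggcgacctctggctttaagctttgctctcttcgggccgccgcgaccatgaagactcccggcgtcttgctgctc
Ctsa: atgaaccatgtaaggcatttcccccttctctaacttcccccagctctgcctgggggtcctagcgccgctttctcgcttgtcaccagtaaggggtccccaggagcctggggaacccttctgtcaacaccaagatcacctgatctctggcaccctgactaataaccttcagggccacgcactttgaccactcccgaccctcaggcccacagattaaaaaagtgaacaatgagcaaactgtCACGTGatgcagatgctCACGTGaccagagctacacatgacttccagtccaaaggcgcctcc
Lamp1: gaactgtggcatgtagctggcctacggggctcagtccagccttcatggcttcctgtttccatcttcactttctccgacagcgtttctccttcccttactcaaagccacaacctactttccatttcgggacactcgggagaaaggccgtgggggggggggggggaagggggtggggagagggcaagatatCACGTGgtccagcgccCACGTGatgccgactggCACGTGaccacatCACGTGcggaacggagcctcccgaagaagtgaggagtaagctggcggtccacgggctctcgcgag
Atg3: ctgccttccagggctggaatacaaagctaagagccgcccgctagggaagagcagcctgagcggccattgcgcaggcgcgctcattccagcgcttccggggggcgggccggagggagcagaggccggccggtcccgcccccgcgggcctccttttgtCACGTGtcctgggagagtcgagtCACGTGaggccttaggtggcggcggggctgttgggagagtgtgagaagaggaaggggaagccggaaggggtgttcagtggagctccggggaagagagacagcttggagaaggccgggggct
Gpnmb: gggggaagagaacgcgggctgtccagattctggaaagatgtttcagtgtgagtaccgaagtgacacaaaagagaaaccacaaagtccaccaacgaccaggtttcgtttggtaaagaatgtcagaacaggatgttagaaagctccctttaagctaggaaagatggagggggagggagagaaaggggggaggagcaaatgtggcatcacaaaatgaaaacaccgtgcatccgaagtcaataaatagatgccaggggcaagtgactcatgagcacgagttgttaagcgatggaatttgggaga

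Ctsd has the core at -245 and -98 from the gene start and rose by 0.99, while Ctsa has it at -12 and 5 and differed by 0.08 (adjusted p = 0.742, limma). Lamp1 holds 4 copies between -61 and -15 and differed by -0.04 (adjusted p = 0.887, limma). Atg3 holds 2 copies between -94 and -71 and fell, and the Gpnmb window holds none. Windows were found for 30 of the 37 genes. CACGTG, which reads the same on both strands, was present for 5 of 13 lysosomal genes and 4 of 16 autophagy genes with a window, and for 11.4% of the genes tested that have a window (8.09% of all 27025 genes in the table). It was present for 2 of 8 lysosomal genes that rose and 3 of 5 that did not pass. The longer TCACGTGA, which contains that core, was present in Ctsa, Ctsd and Atg3 alone among the 30, against 2.04% of the genes tested with a window. These are matches of letters in a short window, which show neither binding nor its absence.

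Gpnmb encodes a transmembrane glycoprotein of lysosomes and melanosomes that is induced in stressed lysosomes and in macrophages. In knock-in lenses its scaled log2 signals were 0.97, 1.09 and 1.44, against -5.93, -5.04 and -6.65 in wild type lenses (arrays in the order of their numbers, here and after). The knock-in arrays lay close together and no wild type array was well above background, so the size of the rise is a bound. The knock-in level of Gpnmb was at least 37.2-fold higher than wild type (adjusted p = 0.000131, limma), taking for each wild type array the higher of its own signal and the lowest signal called well above background. The gene passed the filter on dim probes only through the knock-in arrays, where it is high. In a fit without that filter its adjusted p was 0.00077 (limma). With normexp background correction, which used an offset of 50, its difference was 3.01 in log2 signal, so the bound holds only for the processed signals used here.

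The membrane proteins LAMP1 and LAMP2, the main glycoproteins lining the lysosome, differed from each other. Lamp2, whose protein is also needed for fusion of autophagosomes and for chaperone-mediated autophagy, was at 4.19, 4.15 and 3.99 on the knock-in arrays and 3.12, 3.08 and 3.13 on the wild type arrays. The groups did not overlap, and Lamp2 rose by 1.01 (SE 0.15, adjusted p = 0.00381, limma), with a second probe at 1.40. Lamp1 was at 4.51, 4.75 and 4.79 in knock-in and 4.70, 4.72 and 4.73 in wild type lenses, which is within the spread of the knock-in arrays. Npc1, the membrane protein that passes cholesterol out of the lysosome, was lower on each knock-in array (-2.97, -2.65 and -2.39, against -2.22, -1.96 and -2.05 in wild type), but its difference of -0.59 did not pass (SE 0.20, adjusted p = 0.0643, limma). Its soluble partner Npc2, which hands cholesterol to NPC1, rose by 0.86 (SE 0.20, adjusted p = 0.0225, limma), from signals of 3.63, 3.51 and 3.01 in knock-in and 2.48, 2.45 and 2.65 in wild type lenses.

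Of 8 lysosomal proteases 5 rose. Ctsc, cathepsin C, an aminopeptidase that activates granule serine proteases of immune cells, was at 2.88, 2.80 and 2.15 on the knock-in arrays and -1.19, -1.29 and -1.38 on the wild type arrays. All 6 arrays were well above background, and the rise of 3.90 (SE 0.23, adjusted p = 0.00015, limma) was 14.9-fold. Ctsb, cathepsin B, a broad cysteine protease, was at 6.25, 6.25 and 6.38 in knock-in and 4.95, 4.86 and 4.43 in wild type lenses, a rise of 1.55 (SE 0.19, adjusted p = 0.0018, limma). The narrow range of its knock-in arrays lay wholly above wild type.

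The other 3 rises among the proteases were smaller against their spread. Ctsd, cathepsin D, the main aspartic protease of the lysosome, was at 5.15, 4.71 and 4.54 in knock-in and 3.76, 3.79 and 3.88 in wild type lenses and rose by 0.99 (SE 0.19, adjusted p = 0.0118, limma), with a second probe at 1.20. Ctsl, cathepsin L, was at 8.19, 8.10 and 8.05 in knock-in and 7.39, 7.31 and 6.75 in wild type lenses and rose by 0.96 (SE 0.21, adjusted p = 0.016, limma). Ctsh, cathepsin H, an aminopeptidase, had the widest spread, with 2.13, 1.48 and 1.22 in knock-in and 0.20, 0.63 and -0.62 in wild type lenses, and rose by 1.54 (SE 0.37, adjusted p = 0.0236, limma). Each of these 3 had all knock-in arrays above all wild type arrays.

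The remaining proteases did not pass. Lgmn, legumain, which cleaves after asparagine and matures cathepsins, was higher on every knock-in array (4.81, 4.88 and 5.04) than on any wild type array (4.64, 4.57 and 4.27), with a difference of 0.42 (SE 0.17, adjusted p = 0.114, limma). Ctsa, the carboxypeptidase that protects lysosomal galactosidase and sialidase, and Ctsz, cathepsin Z, differed by 0.08 and -0.12 with overlapping groups.

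Among the other lumenal proteins 3 of 4 rose. Grn, the precursor of granulins, whose loss in people causes lysosomal storage in neurons, was at 2.08, 2.29 and 2.12 in knock-in and 0.65, 0.58 and 1.13 in wild type lenses, a rise of 1.38 (SE 0.20, adjusted p = 0.00352, limma). Hexa, the alpha subunit of hexosaminidase A, was at 2.47, 2.32 and 2.06 in knock-in and 1.61, 1.57 and 1.86 in wild type lenses, a rise of 0.60 (SE 0.18, adjusted p = 0.0457, limma), just inside the threshold. Psap, the precursor of saposins that activate sphingolipid hydrolases, had 1.45, 0.40 and 0.39 on the knock-in arrays and 0.61, 0.76 and 0.93 on the wild type arrays. Knock-in array 1 alone lay above the wild type arrays there, and the difference of -0.02 did not pass.

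Several of these genes are abundant in macrophages, and macrophage markers moved unevenly. Of 16 markers 15 had a probe and 10 were tested, of which Tyrobp and C1qc rose and Itgam, whose probes disagree, fell. Tyrobp, C1qc and C1qa, 3 of the 10, passed the filter only through the knock-in arrays, where they are high. Cx3cr1, Lyz2 and Mrc1 were not well above background on any array. All 10 averaged 1.24, 0.07 and 0.01 on knock-in arrays 1, 2 and 4 and -0.20, 0.21 and -1.34 on wild type arrays 1, 2 and 3, each gene centred on its mean over the 6 arrays. The 7 that were well above background on every array averaged 0.43, -0.41 and -0.44 in knock-in and 0.47, 0.67 and -0.73 in wild type lenses, where the genotypes overlap. Knock-in array 1 was the highest knock-in array in both. The summed linear signal of all 15 markers with a probe, in multiples of the 75th percentile, was 10.8 to 21.4 in knock-in and 13.5 to 42.8 in wild type lenses, and without Itgam 4.30 to 11.3 in knock-in and 2.10 to 5.83 in wild type lenses.

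Markers of other cells differed too. Of 9 fibre markers 4 fell, a share of 44.4%, against 12.6% of all genes tested. All 9 had negative differences, with a median of -0.87. Their summed linear signal was 1298.5 to 1420.5 in knock-in lenses. It was 3079.5 and 3683.8 on wild type arrays 1 and 2 but 1019.2 on wild type array 3, which lay below the knock-in arrays. Of 6 epithelial markers Pdpn rose by 1.55 and Foxe3 fell by 1.11 on the log2 scale, with a median of -0.42 over the 6. Foxe3 passed the filter only through the wild type arrays, where it is high. The summed signal of the 6 markers was 46.1 to 52.9 in knock-in and 24.2 to 27.6 in wild type lenses, mostly from Pdpn. Without Pdpn it was 8.65 to 9.25 in knock-in and 10.4 to 13.5 in wild type lenses. The fibroblast gene Col1a2 rose by 3.05 (adjusted p = 0.0244, limma), while Pdgfra, the other fibroblast marker tested, differed by -0.07. The haemoglobin gene Hbb-bt rose by 2.11 (adjusted p = 0.0126, limma), while Hba-a1, the other blood marker tested, differed by -0.46. Hbb-bt passed the filter only through the knock-in arrays, being well above background on 2 of 3 wild type arrays. Of 5 pigment markers tested Oca2 alone passed, and it fell by 1.81 in log2 signal (adjusted p = 0.0022, limma). Of the 5, 2 had negative differences and 3 positive ones, namely Dct at 2.50, Tyrp1 at 1.29 and Tyr at 0.16. Dct passed the filter only through the knock-in arrays, where it is high, and Pmel, at -0.002, only through the wild type arrays. The part of macrophages and of these other cells in the lysosomal rises was not tested. Without knock-in array 1 all 10 lysosomal rises kept their direction and 6 passed, the others being Ctsh at 1.28 (adjusted p = 0.0773, limma), Ctsl at 0.92 (0.0528), Hexa at 0.51 (0.103) and Npc2 at 0.74 (0.062). Without knock-in array 2 the same genes, Ctsh, Ctsl, Hexa and Npc2, did not pass and 6 did. Leaving out wild type array 1 also left 6, with Ctsd, Ctsh, Hexa and Npc2 not passing. Without knock-in array 4, which carried the photoreceptor transcripts, all 10 passed.

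Members of the Atg8 family differed in direction. These are the small proteins that coat the autophagosome. Map1lc3a, encoding LC3A, was at 0.16, -0.11 and -0.42 on the knock-in arrays and -1.91, -2.23 and -2.21 on the wild type arrays. The groups lay far apart, and Map1lc3a rose by 2.00 (SE 0.20, adjusted p = 0.000896, limma), or 3.99-fold. Gabarapl2 (GATE-16) was at 3.64, 3.52 and 3.12 in knock-in and 2.72, 2.59 and 2.53 in wild type lenses and rose by 0.81 (SE 0.19, adjusted p = 0.0205, limma). Gabarapl1 ran the other way, at 3.98, 4.58 and 4.53 in knock-in and 5.54, 5.62 and 5.30 in wild type lenses, a fall to 0.459 of the wild type level (difference -1.12, SE 0.21, adjusted p = 0.0102, limma). Map1lc3b, whose protein LC3B is the usual marker of autophagosomes, differed by -0.09 (SE 0.25), and Gabarap by -0.15 with a second probe of opposite sign at 0.29. Neither passed.

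Of 4 cargo receptors, 1 rose. Sqstm1 encodes p62, which binds ubiquitinated protein and LC3 and is also induced by oxidative stress, and was at 3.20, 2.97 and 2.85 on the knock-in arrays and 0.92, 0.85 and 1.38 on the wild type arrays. The rise of 1.96 (SE 0.20, adjusted p = 0.000958, limma) was 3.89-fold with no overlap. Nbr1 and Optn, receptors with a similar design, differed by -0.05 and -0.02 with overlapping groups. Bnip3, a receptor for mitochondria induced by hypoxia, differed by -0.44 (adjusted p = 0.195, limma).

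Among the 6 genes of the conjugation systems, 1 fell. Atg3, the E2-like enzyme that joins LC3 to phosphatidylethanolamine, was at 2.24, 2.27 and 2.29 on the knock-in arrays and 3.68, 3.61 and 3.82 on the wild type arrays, and fell by 1.44 in log2 signal (SE 0.15, adjusted p = 0.000898, limma). Both groups were tight and well apart. Atg5 and Atg7, the target and the E1-like enzyme of the first conjugation step, separated by genotype in opposite directions: Atg5 was at 0.68, 0.84 and 0.64 in knock-in and 0.30, 0.33 and 0.37 in wild type lenses, and Atg7 at 0.83, 1.17 and 1.20 in knock-in and 1.44, 1.47 and 1.58 in wild type lenses. Their differences of 0.38 and -0.43 did not pass (adjusted p = 0.0948 and 0.102, limma). Atg12, the ubiquitin-like partner of ATG5, differed by 0.22, and Atg4b, the protease that trims LC3, by -0.30. Atg16l1, which places the conjugation complex on the membrane, was at 0.47, 0.38 and -0.55 in knock-in and 1.82, 1.86 and 0.42 in wild type lenses. Its difference of -1.27 did not pass (SE 0.45, adjusted p = 0.0824, limma), wild type array 3 lying with the knock-in arrays.

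Wild type array 3 also stood apart from the other wild type arrays for genes that start the autophagosome. Ulk1, the initiating kinase, was at 3.48, 3.30 and 3.54 in knock-in and 4.56, 4.32 and 3.28 in wild type lenses, and Becn1, a subunit of the lipid kinase complex, at 0.51, 0.02 and -0.37 in knock-in and -0.81, -1.06 and 0.25 in wild type lenses. Neither passed (adjusted p = 0.213 and 0.291, limma). Within the shared scan day, which holds every knock-in array and the first and second wild type arrays, Ulk1 differed by -0.999 (adjusted p = 0.00373), Becn1 by 0.99 (adjusted p = 0.0273), Atg16l1 by -1.74 (adjusted p = 0.0073), Atg9a by -1.29 (adjusted p = 0.00633), Bnip3 by -0.66 (adjusted p = 0.0176) and Atg5 by 0.40 (adjusted p = 0.0487), all by limma. Those 6 calls take the autophagy genes to 5 higher and 7 lower of 20, against 19.6% higher and 24% lower (43.5% in all) of all genes tested in that fit. The lysosomal count stayed at 10 higher and none lower. Wipi1, which binds the lipid that the kinase makes, was at 0.22, 0.30 and 0.28 in knock-in and 0.93, 0.87 and 1.63 in wild type lenses and fell by 0.88 in log2 signal (SE 0.23, adjusted p = 0.0308, limma). Uvrag, another partner of beclin 1, differed by -0.01, and Atg9a, the transmembrane protein that brings lipid vesicles, by -0.91 (adjusted p = 0.0993, limma).

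Tfeb was dim on every array, at -2.70, -2.55 and -2.15 in knock-in and -2.20, -2.27 and -1.90 in wild type lenses. The groups overlapped and the difference of -0.34 did not pass (SE 0.20, adjusted p = 0.252, limma). TFEB is controlled mainly by phosphorylation and entry into the nucleus, which arrays do not measure.

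Set side by side, the array means of the lysosomal list separated the genotypes and those of the autophagy list did not. With each gene centred on its mean over the 6 arrays, the 16 lysosomal genes averaged 0.73, 0.60 and 0.50 on knock-in arrays 1, 2 and 4 and -0.63, -0.54 and -0.67 on wild type arrays 1, 2 and 3. Leaving out Gpnmb and Ctsc, the largest rises, the other 14 averaged 0.31 ± 0.12 in knock-in and -0.31 ± 0.02 in wild type lenses (SD, n = 3 arrays each). The 20 autophagy genes averaged 0.05, -0.06 and -0.13 in knock-in and 0.05, -0.02 and 0.11 in wild type lenses. The lysosomal mean minus the autophagy mean was 0.66 ± 0.02 in knock-in and -0.66 ± 0.13 in wild type lenses (SD, n = 3 arrays each), and 0.35 ± 0.03 against -0.35 ± 0.08 without Gpnmb and Ctsc. The lists were chosen with earlier results known, and the 16-gene means hold the wild type signals of Gpnmb, which are not measured levels. Centring makes the genotype means equal and opposite. In the further lists counted below, the means differed by 0.50 for lysosomal hydrolases and 0.15 for lysosomal membrane and sorting proteins. Autophagy machinery differed by 0.12 and its receptors by -0.09. All these means are given as a description, without a test.

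**Figure D2:**
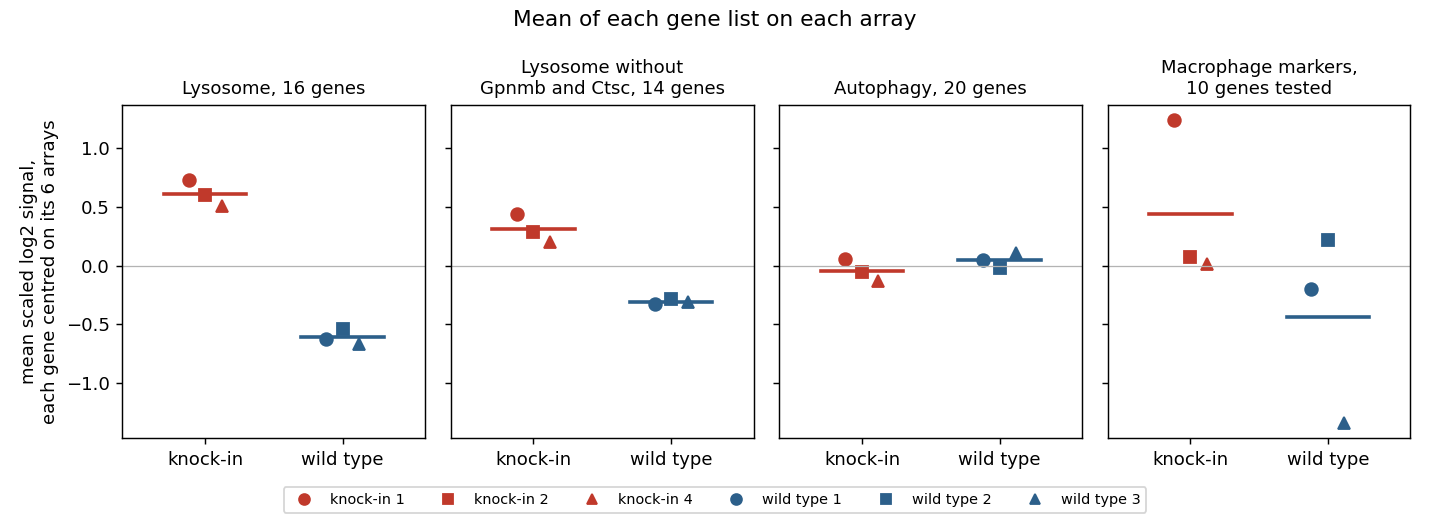
Mean scaled log2 signal of each list on each array (vertical axis, log2, each gene centred on its mean over the 6 arrays) for lysosomal genes, lysosomal genes without Gpnmb and Ctsc, autophagy genes and the 10 macrophage markers tested. Symbols are single arrays and bars the mean of 3; the lysosomal genes lie at 0.50 to 0.73 on the knock-in arrays and -0.67 to -0.54 on the wild type arrays, and knock-in array 1 is highest for macrophage markers, 3 of which passed the filter only through the knock-in arrays.

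Of the 37 genes, 15 had every knock-in array above every wild type array and 5 had every one below, where 22.7% and 23.1% of all genes tested did so. In either direction the share over all genes was 45.9%. Of the members, 5 had 2 usable probes, and in 4 both had the same sign, Gabarap being the exception.

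A further 148 genes of the same pathways were counted in 6 lists, to be read against the 13.3% of all genes tested that rose and the 12.6% that fell. Of 36 genes tested on the list of further lysosomal hydrolases, 15 rose and 2 fell. The rises include Tpp2, which encodes a mainly cytosolic peptidase. Of 21 further lysosomal membrane and sorting proteins 6 rose and 3 fell. Of 28 further autophagy genes 6 rose and none fell, and of 9 further receptors and their regulators 2 rose and 1 fell. The acid pump of the lysosome, the vacuolar ATPase, had 2 rises and 1 fall among 18 subunits, and the TFEB family with the mTORC1 nutrient sensor had 1 rise and 2 falls among 18 genes. Over all of them 32 rose and 9 fell of 130 tested, with a median difference of 0.23. With arrays centred on their median this was 15 rises and 9 falls, with 6 rises and 2 falls among the hydrolases and 2 rises and 2 falls over both autophagy lists. Of the 26 further genes named here, 5 passed with slide as a random block, namely Manba, Scarb2, Cd63, Hgsnat and Fnip1, which also passed under all 16 alternatives. The other 21 did not (adjusted p = 0.056 to 0.320, limma), and 13 of the 26 lost their call on leaving out some single array.

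**Figure D3:**
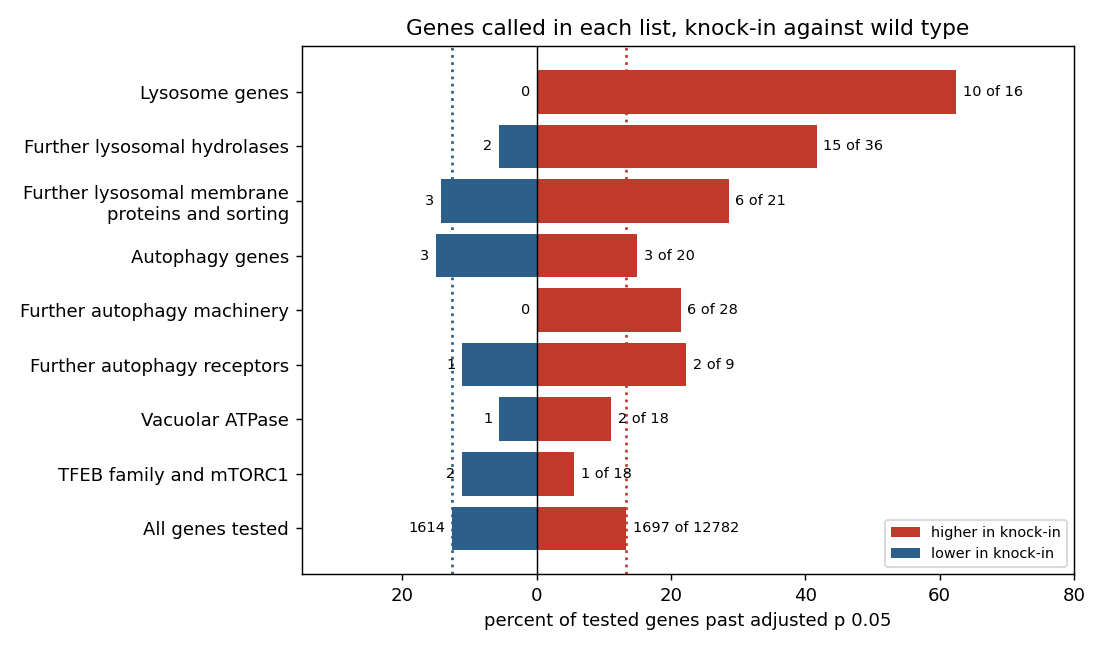
Share of tested genes that rose (red, right) or fell (blue, left) in knock-in lenses, in percent, for the 2 member lists, the 6 further lists and all genes tested, with counts beside the bars. Dotted lines mark the shares over all genes, 13.3% higher and 12.6% lower. Lysosomal genes reach 62.5% higher, and the vacuolar ATPase and the TFEB family with mTORC1 stay below the dotted lines.

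The further hydrolases included enzymes that strip sugars from glycoproteins and glycolipids. Manba, beta-mannosidase, was at 1.52, 1.59 and 1.46 on the knock-in arrays and -0.15, -0.37 and -0.35 on the wild type arrays and rose by 1.81 (SE 0.15, adjusted p = 0.000466, limma). Man2b1, alpha-mannosidase, rose by 0.79, and Glb1, beta-galactosidase, by 1.09. Ctss, the cathepsin of antigen-presenting cells, rose by 4.27 (SE 0.84, adjusted p = 0.0118, limma), from 1.81, 0.30 and -0.05 in knock-in and -3.19, -2.18 and -5.37 in wild type lenses, of which 2 were well above background. It entered the test only through the knock-in arrays and was highest on array 1, as the macrophage markers were. Smpd1, acid sphingomyelinase, fell by 0.84 in log2 signal (SE 0.15, adjusted p = 0.00834, limma).

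The other hydrolase that fell, Idua, needs care. Its bright probe fell by 1.84 on the log2 scale (adjusted p = 0.0237, limma) and its other probe differed by 0.15. That bright probe tracked the probe of Slc17a5, the lysosomal sialic acid exporter, to within 0.0396 on every array, and Slc17a5 fell by 1.80 on the log2 scale (adjusted p = 0.0249, limma). Whether these 2 probes read the same RNA was not tested.

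Among membrane proteins, Scarb2 (LIMP-2), which carries glucocerebrosidase to the lysosome, was at 0.27, -0.11 and -0.35 in knock-in and -2.45, -2.13 and -1.96 in wild type lenses and rose by 2.12 (SE 0.22, adjusted p = 0.00107, limma). The tetraspanin gene Cd63 rose by 1.48 (SE 0.17, adjusted p = 0.00138, limma). Hgsnat, which acetylates heparan sulfate for its breakdown, rose by 1.18, and Gnptg, a subunit of the enzyme that makes the mannose 6-phosphate tag, by 0.93. Tmem192 and Lamp3 fell by 0.83 and 0.72 on the log2 scale.

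On the autophagy side, Vmp1, an endoplasmic reticulum protein needed to form autophagosomes, rose by 1.15 (SE 0.15, adjusted p = 0.00271, limma). Atg14, which directs the lipid kinase to autophagy, rose by 0.78, Wdr45 by 0.76 and Atg2a, a lipid transfer protein, by 0.85. Atg2a was dim, at -2.81, -2.26 and -2.05 in knock-in and -3.39, -3.15 and -3.13 in wild type lenses. It entered the test only through the wild type arrays, with 2 of 3 knock-in arrays well above background. The receptor Tax1bp1 rose by 1.45 (SE 0.21, adjusted p = 0.00376, limma) and Retreg1, a receptor for endoplasmic reticulum, by 0.89. Sesn2, sestrin 2, a stress-induced inhibitor of mTORC1, fell by 0.98 on the log2 scale. In the acid pump Atp6ap1 rose by 1.09 and Atp6v1a, its catalytic subunit, by 0.87, while Atp6v1g2 fell. Atp6v1g2 entered the test only through the wild type arrays, where it is higher, and no knock-in signal of it stood well above background. Its wild type signals were -3.21, -3.19 and -3.82. The lowest signals called well above background on the knock-in arrays were -2.68, -3.67 and -3.70, so the size of this fall cannot be bounded. Mitf, the relative of TFEB that governs pigment cells, was at -1.38, -1.03 and -0.58 in knock-in and 0.53, 0.62 and 0.39 in wild type lenses and fell by 1.51 in log2 signal (SE 0.23, adjusted p = 0.00439, limma), though its second probe differed by -0.18. Fnip1, a partner of folliculin at the lysosome, rose by 1.40 (SE 0.17, adjusted p = 0.00182, limma), and Rragc, a GTPase that recruits mTORC1, fell by 0.69 on the log2 scale.

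Of the 16 calls among the 37 genes, 7 passed under every alternative that could test them: Ctsc, Ctsb, Grn, Sqstm1, Map1lc3a, Atg3 and Gpnmb, the last of which could not be tested under the stricter filter. A fit with slide as a random block cannot tell slide from genotype, since only wild type arrays lay on more than 1 slide. In that fit 4 lysosomal genes rose, and 2 autophagy genes rose and 1 fell, against 2.83% higher and 2.03% lower (4.86% in all) of all genes tested. The calls it ended were those of Lamp2 (adjusted p = 0.071), Ctsd (0.173), Ctsh (0.162), Ctsl (0.108), Hexa (0.341), Npc2 (0.251), Wipi1 (0.146), Gabarapl1 (0.156) and Gabarapl2 (0.223), all by limma. Single arrays also ended calls: over the 6 fits that each leave out 1 array, the adjusted p reached 0.0535 for Ctsd, 0.0773 for Ctsh, 0.0663 for Ctsl, 0.164 for Hexa, 0.0983 for Npc2, 0.0995 for Wipi1 and 0.0931 for Gabarapl2. No call changed direction. Sizes did vary: over the alternatives the log2 difference ran from 3.02 to 4.13 for Ctsc and from 3.01 to 7.46 for Gpnmb. It ran from 1.21 to 2.14 for Map1lc3a and from 1.57 to 2.20 for Sqstm1.

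**Figure D4:**
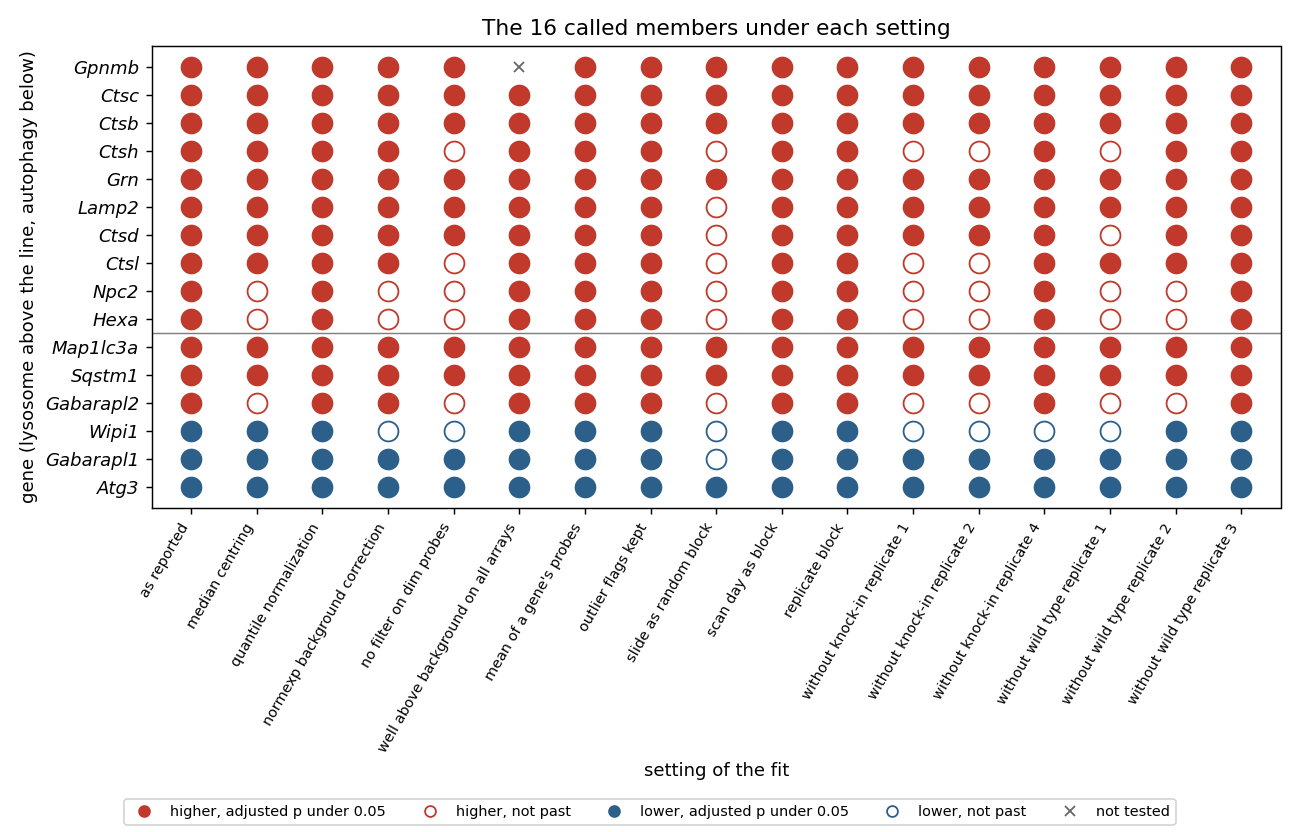
The 16 members that rose (red) or fell (blue) in knock-in lenses, under the fit as reported and 16 alternatives (columns). Filled circles passed an adjusted p of 0.05, open circles did not, and a cross marks a gene not tested; the direction is the same in every column, and 7 genes have no open circle.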

How the data were processed

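Cy3-labelled cRNA from 6 lens samples was read on Agilent arrays of 1 colour. The authors deposited the scanner's intensity for every spot. Its processed form had been background-subtracted, per the file headers, by Agilent software of version 11.0.1.1, while the submitters' processing notes name Feature Extraction 9.1. Flags for background, saturation and outliers were deposited beside the intensities. The design's coordinates are not used.

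Each array's log2 processed intensity was taken relative to its 75th percentile over 43020 non-control spots. Spots flagged as outliers were dropped, and the remaining spots averaged per probe. Probes well above background (at least 50% of spots) on all arrays of a group were kept (21076). RefSeq accessions (assembly GRCm38.p6) named 27234 probes, with the brightest probe standing for a gene, which left 12782. The model was limma 3.58.1 (R 4.3.3, 4 residual degrees of freedom), and the procedure was tested on simulated data. The members and lists were chosen with earlier results of these data known. Named further genes are those past the threshold with the smallest p, up to 4 per list and direction. Array number limits the precision, and an exact test of 3 against 3 cannot go below p = 0.1. The series' design text calls the arrays biological replicates without saying whether animals were pooled, so p-values measure the spread between arrays. No spot was saturated. Replicate arrays correlated at 0.953 to 0.996 over genes. Alternatives covered scaling, background, filters, probes, flags, slide, scan day, replicate numbers and leaving out each array, and normexp used median signals with an offset of 50.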

Additional observations from a re-analysis of the deposited data

How the results depend on the processing

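The lysosomal count of 10 was 6 without the filter on dim probes and 4 with slide as a random block, and 6 to 10 on leaving out single arrays, 6 without knock-in array 1, knock-in array 2 or wild type array 1. All of these were rises. The autophagy count of 6 was 3 with slide as a random block, 12 with scan day as a block, and 4 to 12 on leaving out single arrays, 12 being without wild type array 3. Blocking on scan day and leaving out wild type array 3 give the same differences, since that array is the only one of its scan day. The count of 41 further genes was 24 with median centring, 26 with normexp, 20 without the filter, 5 with slide as a random block, and 14 to 58 on leaving out single arrays (14 without knock-in array 2, 17 and 18 without wild type arrays 1 and 2). The cause was not tested, except that slide as a random block adds the spread between slides, and that a fit without the filter adjusts over 20656 genes.

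Replicate numbers 1 and 2 occur in both genotypes and nothing in the labels ties their samples together. With the replicate number as a block the autophagy count was 11, the lysosomal count 11 and the further count 61. Deviations from the group means correlated at 0.17 for number 1 and -0.22 for number 2. Arrays of unlike number reached similar sizes, such as -0.215 for knock-in 1 with wild type 3 and 0.220 for knock-in 2 with wild type 3. With so few like-numbered arrays these values cannot decide whether the numbers pair the samples.

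Over 37 genes and 16 alternatives, 43 calls were lost and 22 gained. The sign turned for 10 genes, none of them called, and no turned value passed. With scan day as a block these were Uvrag 0.15, Map1lc3b 0.17, Nbr1 0.26, Optn 0.15, Ctsz 0.092 and Psap 0.065. With the replicate block they were Uvrag 0.15, Atg4b 0.10, Map1lc3b 0.12, Nbr1 0.40, Optn 0.28, Ctsz 0.24 and Psap 0.24. With quantile normalization they were Uvrag 0.0071, Gabarap 0.018, Lamp1 0.22 and Psap 0.0017, with normexp Optn 0.027 and Ctsa -0.082, and with the mean of its probes Gabarap 0.071. Leaving out single arrays gave -0.13 to 0.15 for Uvrag, -0.23 to 0.17 for Map1lc3b, -0.33 to 0.26 for Nbr1, -0.18 to 0.15 for Optn, -0.090 to 0.054 for Lamp1, -0.27 to 0.092 for Ctsz and -0.37 to 0.16 for Psap.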

Other observations

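Some genes of these pathways were not well above background on all arrays of either genotype and entered no comparison. Plbd1, a phospholipase B-like lysosomal protein, was at -2.89, -2.49 and -2.34 on knock-in arrays 1, 2 and 4 and at -4.22, -4.87 and -6.49 on wild type arrays 1, 2 and 3, well above background on 2 knock-in arrays and no wild type array. Acp5, the tartrate-resistant acid phosphatase of osteoclasts and macrophages, was at -2.77, -3.05 and -3.31 in knock-in and -4.58, -3.60 and -4.73 in wild type lenses, well above background on 2 and 1 of the arrays. Atp6v0d2, an acid pump subunit of the same cells, was not well above background on any array. Dnase2a, a lysosomal nuclease, was at 6.95, 6.93 and 7.13 in knock-in and 6.93, 6.91 and 5.64 in wild type lenses, with wild type array 3 apart from the other 5, and did not pass (difference 0.51, adjusted p = 0.327, limma).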
